A study of Canis lupus familiaris with 2 samples.

Results

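Caveolae are small flask-shaped pits of the plasma membrane. Their coat is built from caveolins, which insert into the inner leaflet of the membrane, and from cavins, which assemble on them from the cytosol. EHD ATPases and the F-BAR protein PACSIN2 (syndapin 2) shape the neck, and caveolae flatten when a cell is stretched or swollen, which releases membrane and buffers tension. The genes described here are 10 genes of this machinery among the 23510 features of the expression files, chosen by gene symbol. They are the caveolins CAV1, CAV2 and CAV3, the cavins PTRF (now CAVIN1), SDPR (CAVIN2) and PRKCDBP (CAVIN3), and the neck and related genes EHD2, EHD1, EHD4 and PACSIN2. MDCK is an established canine kidney cell line that grows as a columnar epithelial sheet, and caveolin was studied early in its transport vesicles.

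RNA came from MDCK cells on a semipermeable membrane, with 1 culture in 2-cm-high medium (2 cm H2O, the control) and 1 culture in 50-cm-high medium (50 cm H2O), both labelled day 3. No genotype or drug distinguished the cultures. The height of the medium column set the static pressure, and the comparison asks how the RNA of these genes differed under the pressure load. With 1 culture per height there are no replicates, so no difference could be set against replicate error and no p-value is given. Levels are FPKM, fragment numbers scaled by the exon length of the gene and the size of the library, which allow genes of different length to be set side by side. Ratios are 50-cm over 2-cm FPKM without a pseudocount, given only where the FPKM exceeded 1 at both heights. A ratio past 2-fold counted as a call. In these whole-culture values, fewer cells expressing a gene and less RNA per cell cannot be told apart.

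The sequenced RNA had the markers of an epithelial line. Of the 13 epithelial markers analysed here, 12 were above 1 FPKM in both cultures, led by KRT8, a keratin of simple epithelium, at 1641 FPKM at 2 cm and 1561 FPKM at 50 cm. The exception was the kidney cadherin CDH16, at 1.96 and 0.676 FPKM. The list summed to 6905 FPKM at 2 cm and 6463 FPKM at 50 cm. Of the 12 markers 3 were higher and 9 lower at 50 cm, with a median log2 ratio of -0.08. Among all 11057 features above 1 FPKM in both cultures, 52.6% were higher at 50 cm. Caveolae are especially abundant in endothelium, fat and muscle. None of the 8 endothelial markers reached 1 FPKM in either culture, with a summed level of 0.674 FPKM at 2 cm and 0.502 FPKM at 50 cm and PECAM1, TEK and EMCN listed at 0. None of the 8 fibroblast markers did so either, with sums of 0.374 and 0.401 FPKM and COL3A1, DCN, LUM and THY1 at 0. Of 6 adipocyte markers, PPARG, a nuclear receptor, and CIDEC, a lipid droplet protein, were above 1 FPKM, and the list summed to 60.1 FPKM at 2 cm and 46.1 FPKM at 50 cm, with LEP at 0. Of 8 muscle markers, ACTA1, an actin that closely resembles the cytoplasmic actins, and TNNT2, a troponin, were above 1 FPKM, and the list summed to 23.4 FPKM at 2 cm and 31.1 FPKM at 50 cm, with MYOD1, MYOG, CKM and MB at 0. The part of these genes in the values below was not tested.

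None of the 10 caveola genes passed 2-fold. Of these, 9 were above 1 FPKM in both cultures and CAV3 was listed at 0 in both. Over all 11057 features above 1 FPKM in both cultures, 1.67% passed 2-fold. At the smaller size of 1.5-fold, 1 of the 9 genes passed, PRKCDBP, compared with 7.19% of all features, or 2.13% when only the direction of higher at 50 cm was counted. At 1.2-fold, a size added to the planned 2-fold and 1.5-fold, 5 of the 9 passed (PRKCDBP, PTRF, EHD1, EHD2 and CAV1). All 5 were higher at 50 cm. Over all features, 31.9% passed 1.2-fold in either direction, and 13.3% had a ratio at least as high as that of CAV1, the lowest of the 5. CAV1, at a ratio of 1.22, lay just past this size. Its ratio fell below 1.2 after rescaling to the same sum (log2 ratio 0.25) and after quantile normalization (0.14). The ratio was above 1 for 8 of the 9 genes and for 52.6% of all features. For CAV2 the sign depended on the scaling, as described with its values. The median log2 ratio of the 9 genes was 0.28, and that of all features was 0.01.

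**Figure D1:**
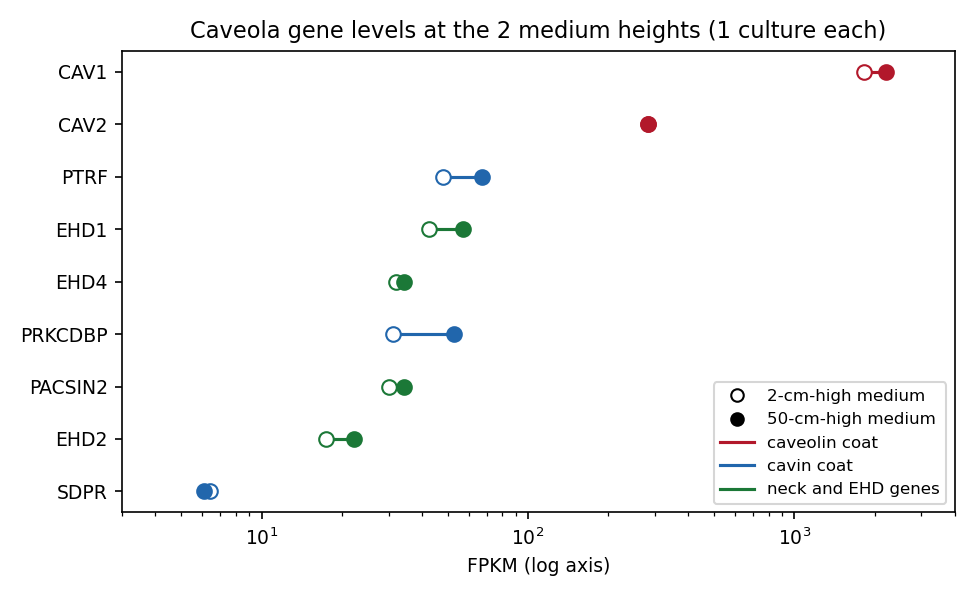
FPKM on a log axis for the 9 caveola genes above 1 FPKM in both cultures, with open points for 2-cm-high medium, filled points for 50-cm-high medium and 1 culture each. The genes run from SDPR at 6.10 FPKM to CAV1 at 2216 FPKM, and the points of CAV2 coincide.

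CAV1 encodes caveolin-1, the protein without which non-muscle cells form no caveolae. It stood at 1821 FPKM at 2 cm and 2216 FPKM at 50 cm, a ratio of 1.22 (log2 ratio 0.28). CAV1 was among the most abundant RNAs of the line, at rank 27 of 23510 features at 2 cm and rank 18 at 50 cm. Its share of the summed FPKM of all features was 0.303% at 2 cm and 0.361% at 50 cm. A ratio at least as high was found in 13.3% of the features tested. When both cultures were forced to the same distribution of values by quantile normalization, its log2 ratio was 0.14.

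CAV2 encodes caveolin-2, which joins caveolin-1 in mixed oligomers and depends on it to reach the cell surface. Its level was 282 FPKM at 2 cm and 283 FPKM at 50 cm, a ratio of 1.01. The log2 ratio was 0.0097 as deposited, -0.0049 after recentring on the median of all features, -0.023 after rescaling both cultures to the same sum and -0.047 after quantile normalization, so no direction can be given for it. The caveolin RNAs thus differed in their ratios: CAV1 was 6.47 times CAV2 at 2 cm and 7.82 times CAV2 at 50 cm.

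CAV3 encodes the muscle caveolin. It was listed at 0 FPKM in both cultures, as were the muscle factors MYOD1 and MYOG. A listed 0 does not by itself show that RNA was absent, since genes that most cells express, such as the insulin receptor INSR and the endocytic scaffold ITSN1, were also listed at 0 in both.

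Among the caveolins, cavins and neck genes, the cavins had the widest range of ratios. PRKCDBP encodes cavin-3, a cavin that binds protein kinase C delta. Its level was 31.3 FPKM at 2 cm and 52.8 FPKM at 50 cm, a ratio of 1.69 (log2 ratio 0.75). This was the highest ratio of the 9 genes and rank 115 among the 11057 features, so that 1.04% of features had a ratio at least as high. Among features with a mean level of 10 to 100 FPKM, the range that holds PRKCDBP, 3.66% passed 1.5-fold in either direction. Across the 8 alternative settings its log2 ratio stayed between 0.70 and 0.75. At its level most of these settings could alter the ratio only slightly, and none measures variation between cultures.

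PTRF encodes cavin-1, the cavin that all caveolae need and that carries the other cavins into the coat. It was at 48.2 FPKM at 2 cm and 67.1 FPKM at 50 cm, a ratio of 1.39 (log2 ratio 0.48) and rank 455. SDPR encodes cavin-2, which binds phosphatidylserine and helps to curve the membrane. In the values as deposited, it was the only 1 of the 9 genes with a lower value at 50 cm, at 6.43 FPKM at 2 cm and 6.10 FPKM at 50 cm, a ratio of 0.949 (log2 ratio -0.08). In absolute size, 75.1% of all features had a log2 ratio at least as large. The cavin MURC (cavin-4), which belongs to muscle and is outside the 10 genes, was at 0.0181 FPKM at 2 cm and listed at 0 at 50 cm.

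**Figure D2:**
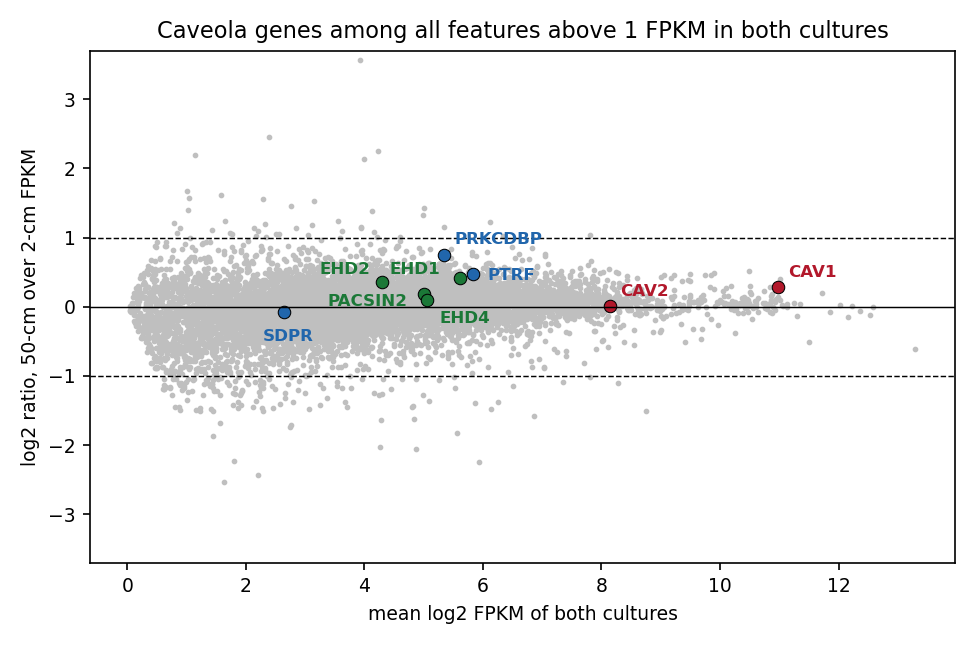
Log2 ratio of 50-cm over 2-cm FPKM against the mean log2 FPKM of both cultures for 11057 features above 1 FPKM in both (grey), with caveolins in red, cavins in blue and neck genes in green, and dashed lines at 2-fold. All 9 caveola genes lie between the dashed lines, from -0.08 for SDPR to 0.75 for PRKCDBP.

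The summed FPKM of PTRF, SDPR and PRKCDBP was 85.9 at 2 cm and 126 at 50 cm, a ratio of 1.47. The summed FPKM of the caveolins was 2103 at 2 cm and 2499 at 50 cm, a ratio of 1.19. Caveolin RNA was therefore 24.5 times cavin RNA at 2 cm and 19.8 times cavin RNA at 50 cm. Within the cavins, PRKCDBP supplied 36.4% of the sum at 2 cm and 41.9% at 50 cm, PTRF 56.1% and 53.3%, and SDPR 7.48% and 4.84%. PTRF was 7.50 times SDPR at 2 cm and 11.0 times SDPR at 50 cm. These are ratios of RNA levels and not of proteins in the coat. They also rest on the exon models of each gene, and the annotation used is not given in the sources.

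**Figure D3:**
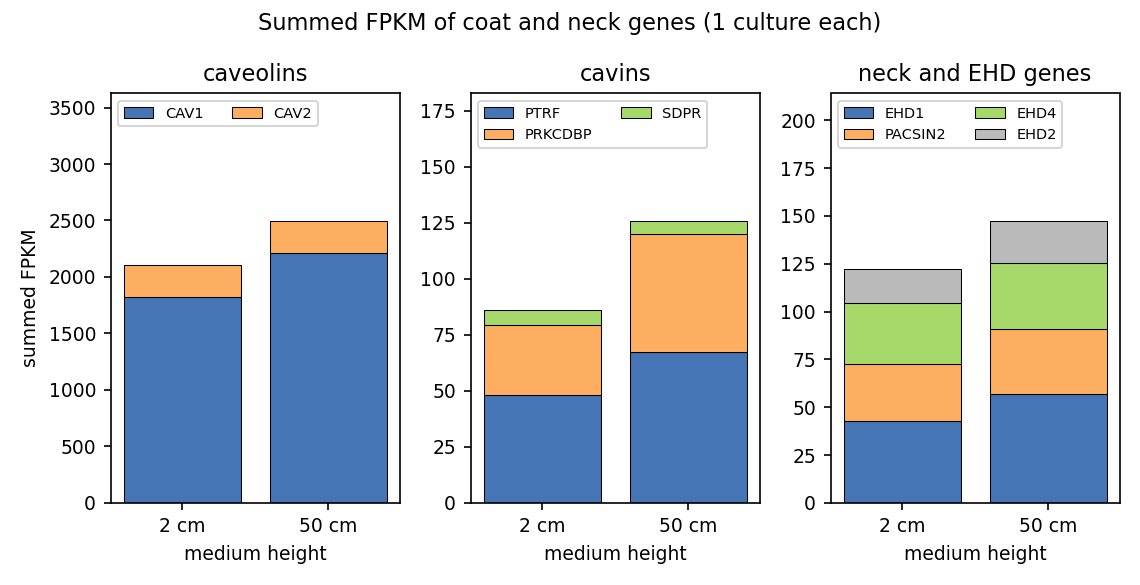
Stacked bars of FPKM for the caveolins, the cavins and the neck and EHD genes in 2-cm-high and 50-cm-high medium, with 1 culture each and a separate vertical axis for each panel. The cavin bar is 1.47 times as high at 50 cm, the caveolin bar 1.19 times and the neck gene bar 1.21 times.

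EHD2 is the EHD ATPase that sits at the neck of caveolae and holds them at the surface. Its level was 17.4 FPKM at 2 cm and 22.3 FPKM at 50 cm, a ratio of 1.28 (log2 ratio 0.35). EHD1, which drives recycling from endosomes and can stand in for EHD2 at caveolae, was at 42.6 FPKM at 2 cm and 56.9 FPKM at 50 cm, a ratio of 1.34 (log2 ratio 0.42). EHD4, a related ATPase of endosomes, was at 32.1 and 34.2 FPKM, a ratio of 1.07. EHD1 RNA was 2.44 times EHD2 RNA at 2 cm and 2.55 times at 50 cm. EHD3, the fourth ATPase of the family and outside the 10 genes, was at 0.297 FPKM at 2 cm and 0.536 FPKM at 50 cm, below the minimum of 1 FPKM. The EHD genes resemble each other in sequence, and how reads that match several of them were divided is not given in the sources used here.

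PACSIN2, whose F-BAR domain bends the membrane of the caveolar neck, was at 30.0 FPKM at 2 cm and 34.2 FPKM at 50 cm, a ratio of 1.14 (log2 ratio 0.19). Of its relatives, PACSIN3 was at 17.0 and 17.7 FPKM, a ratio of 1.04, and the neuronal PACSIN1 was at 0.827 and 0.769 FPKM. The summed FPKM of EHD2, EHD1, EHD4 and PACSIN2 was 122 at 2 cm and 148 at 50 cm, a ratio of 1.21.

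In order of level, the 2-cm-high-medium culture had CAV1, CAV2, PTRF, EHD1, EHD4, PRKCDBP, PACSIN2, EHD2 and SDPR. The order at 50 cm differed in the middle, where PRKCDBP moved from rank 6 to rank 5 and PACSIN2, at 34.23 FPKM, stood beside EHD4, at 34.19 FPKM. Without replicates, neighbours in this order could not be separated by their spread. CAV1 exceeded CAV2 by a wider factor than the 9 ratios between cultures cover, and the same held for CAV2 over PTRF. Those ratios compare the medium heights and are not a replicate spread, so the order of these genes was not tested.

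Caveolae are tied to actin, and 17 genes of these links and of the kinases and GTPases that act on caveolae were listed. Of the 15 above 1 FPKM in both cultures, none passed 2-fold, compared with 1.67% of all features. At 50 cm 12 were higher and 3 lower, compared with 52.6% of all features higher. The median log2 ratio was 0.15, compared with 0.01 over all features. FLNA, the actin crosslinker filamin A that binds caveolin-1, had the highest ratio, with 136 FPKM at 2 cm and 187 FPKM at 50 cm (1.37). FNBP1, an F-BAR protein that promotes actin assembly at membranes, had the lowest, with 1.90 FPKM at 2 cm and 1.14 FPKM at 50 cm (0.600). It lay near the minimum of 1 FPKM. It was the only 1 of the 15 past 1.5-fold, compared with 7.19% of all features in either direction. SRC, which phosphorylates caveolin-1, was at 76.3 and 86.8 FPKM, and DNM2, the dynamin that cuts membrane necks, at 83.9 and 92.7 FPKM. Besides FNBP1, the kinase genes FYN (ratio 0.864) and PTK2 (ratio 0.964) were lower at 50 cm. ROR1, a receptor that can hold caveolins and cavin-1 together, was listed at 0 in both.

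A further 16 genes encode binding partners of EHD and PACSIN proteins, and all were above 1 FPKM in both cultures. None passed 2-fold, compared with 1.67% of all features. At 50 cm 11 were higher and 5 lower, compared with 52.6% of all features higher, and the median log2 ratio was 0.06. EHBP1L1, an EHD binding protein, had the highest ratio, at 26.4 FPKM at 2 cm and 32.9 FPKM at 50 cm (1.25). MICALL2, a junctional adaptor of RAB GTPases, had the lowest, at 15.2 and 11.7 FPKM (0.766).

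Of 16 receptors and enzymes that have been found in caveolae, 8 were above 1 FPKM in both cultures. None passed 2-fold, compared with 1.67% of all features. At 50 cm 5 were higher and 3 lower, compared with 52.6% of all features higher, and the median log2 ratio was 0.04. PRKCA, protein kinase C alpha, had the highest ratio, at 4.06 FPKM at 2 cm and 6.64 FPKM at 50 cm (1.63). It was the only 1 of these 8 past 1.5-fold, compared with 7.19% of all features in either direction. SCARB1, a receptor for high-density lipoprotein, had the lowest, at 93.6 and 87.6 FPKM (0.936). The median of this list changed sign when genes down to 0.1 FPKM were included, to -0.0060.

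**Figure D4:**
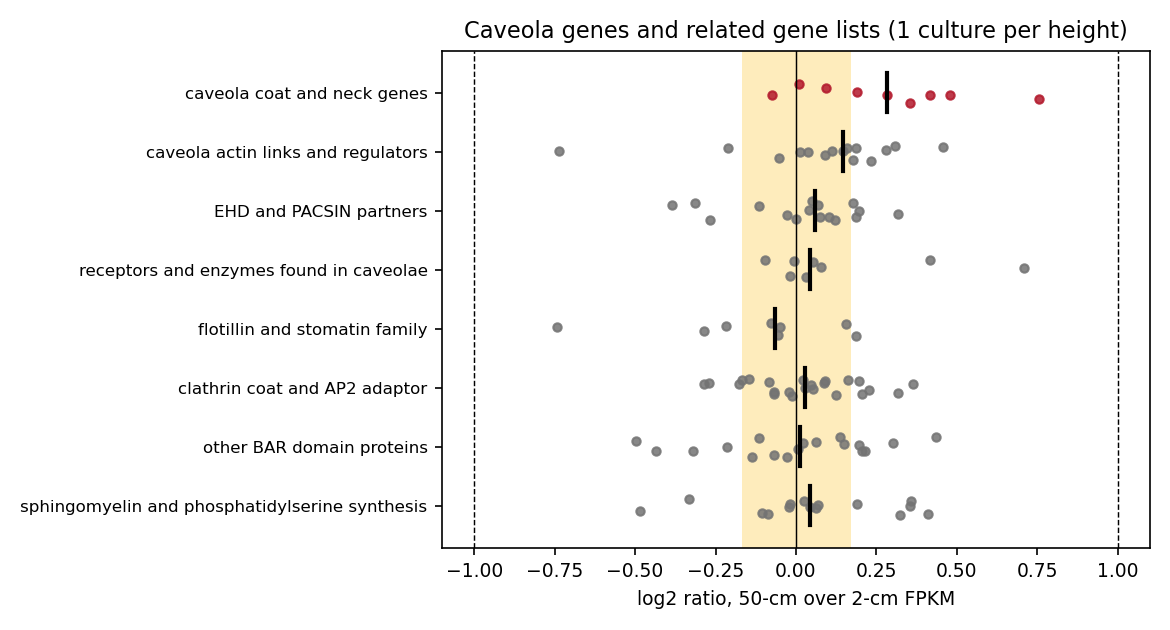
Log2 ratio of 50-cm over 2-cm FPKM for the 9 caveola genes (red) and for each related gene list (grey), with 1 point per gene above 1 FPKM in both cultures, black bars at the medians, a shaded band from the lower to the upper quartile of all 11057 features and dashed lines at 2-fold. The caveola genes have a median of 0.28, the flotillin and stomatin genes one of -0.07, and no point lies past 2-fold.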

How the data were processed

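RNA was measured by sequencing of stranded mRNA libraries, 1 library from each of 2 MDCK cultures. The authors mapped single-end reads to the dog genome CanFam3.1, and the deposited FPKM values were calculated with Cuffnorm (submitters' processing notes: TopHat2 2.0.13, Bowtie2 2.2.3, SAMtools 0.1.19, Cuffnorm 2.2.1). Neither the annotation used nor the way Cuffnorm scaled the libraries is given in the sources used here. FPKM divides by exon length and library size, so abundant genes that differ shift all others. Read numbers are unknown, so no counting interval was computed. Of 574 features detected under 0.1 FPKM at both heights, 219 had a ratio within 0.2% of 1.098. This commonest ratio was read as equal low read numbers in the 2 cultures, such as 1 read each.

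Groups came from the labels. Ratios, ranks and medians were computed with Python 3.11.15, numpy 2.4.6 and pandas 2.3.3, and figures were drawn with matplotlib 3.10.9. The scripts were tested on simulated data. The genes and lists were chosen with earlier results of these data known. The genes named are the 10 caveola genes, their family relatives and, in each list, genes past 2-fold or, failing these, those of highest and lowest ratio. KRT8, CDH16, SRC, FYN, PTK2, DNM2, INSR, ITSN1, FLOT2, PHB2, CLTC, SGMS1, SGMS2, MET, TES and CAPZA2 were added for context after their values were seen, as were marker genes above 1 FPKM or at 0. Alternatives were other FPKM minima, pseudocounts of 0.1 and 1, recentring, rescaling to the same sum and quantile normalization. Gene order came from the RefSeq table of another dog assembly (UU_Cfam_GSD_1.0), in which all 10 genes were matched, the cavins under their newer symbols. Start positions in that table served only to order the genes, and no sequence was used.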

Additional observations from a re-analysis of the deposited data

How the results depend on the processing

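Under the 8 alternative settings, 232 of 240 recomputed values moved by at most 0.1 on the log2 scale or, for counts and percentages, by at most 1.5 times. No caveola gene passed 2-fold and PRKCDBP passed 1.5-fold in each of these settings. Much of this agreement was built in. Every tested caveola gene was above 5 FPKM in both cultures, so another FPKM minimum left its ratio unchanged. Recentring and rescaling lower all log2 ratios by 0.015 and 0.032, less than the 0.1 limit. The median log2 ratio of the caveola genes was 0.28 and moved to 0.14 with quantile normalization, with CAV1 as the median gene in both cases. With an FPKM minimum of 0.1, 1 of the other BAR domain genes passed 2-fold, and with any value above 0 accepted, 3 did, compared with 0 at the minimum of 1. The share of all features past 2-fold was 5.50% at a minimum of 0.1 FPKM, 8.50% above 0, 0.708% at a minimum of 5 and 0.832% with a pseudocount of 1. The FPKM minimum set how many genes were tested, and the cause of the other movements was not tested. No paired analysis was possible because each group has 1 culture, and for the same reason no culture could be left out.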

Other observations

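Other membrane routes were described by lists in the same way. For each list, the shares over all features were 1.67% past 2-fold and 52.6% higher at 50 cm. Flotillins form coat-like patches of membrane without caveolins. Of 8 flotillin and stomatin family genes above 1 FPKM in both cultures, 2 were higher and 6 lower at 50 cm, none passed 2-fold, and the median log2 ratio was -0.07. FLOT1 was at 54.9 FPKM at 2 cm and 32.8 FPKM at 50 cm (ratio 0.598), and its partner FLOT2 at 98.0 and 80.3 FPKM (ratio 0.820). FLOT1 was the only 1 of the 8 past 1.5-fold, compared with 7.19% of all features in either direction. STOML2, a mitochondrial member of the family, had the highest ratio, 1.14, at 70.9 and 80.8 FPKM. PHB2 (ratio 1.11) was the other gene of the list with a higher value at 50 cm. Only FLOT1 and FLOT2 of this list are flotillins, so its median does not describe the flotillins alone. PHB, also listed, had no value under that symbol. The 23 clathrin coat and AP2 adaptor genes above the minimum had a median log2 ratio of 0.03, with 13 higher and 10 lower and none past 2-fold, from HIP1R, an actin-binding endocytic protein, at a ratio of 0.820 to EPN2, an epsin, at 1.29. The clathrin heavy chain CLTC was at 232 and 239 FPKM. The median of this list changed sign, to -0.0055 after rescaling to the same sum and to -0.035 with quantile normalization.

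The 18 other BAR domain genes above the minimum had a median log2 ratio of 0.01, with 10 higher and 8 lower and none past 2-fold. Over all features, 52.6% were higher at 50 cm and 1.67% passed 2-fold. Their ratios ran from 0.709 for PSTPIP2 to 1.35 for BIN1, an N-BAR protein that tubulates membrane, at 16.4 and 22.2 FPKM. The sign of their median differed between settings. Caveolae also need sphingomyelin and phosphatidylserine in the membrane. Of 15 genes of their synthesis above the minimum, 9 were higher and 6 lower with a median log2 ratio of 0.04 and none past 2-fold. CERS2, a ceramide synthase, had the highest ratio, 1.33, at 66.8 and 88.8 FPKM, and SPTLC2, a subunit of the enzyme that starts sphingolipid synthesis, the lowest, 0.714, at 106 and 75.4 FPKM. The sphingomyelin synthases SGMS1 and SGMS2 had ratios of 1.04 and 1.05.

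CAV2 and CAV1 lie next to each other in the RefSeq gene order on chromosome 14, with TES before CAV2 and MET after CAV1, whereas each of the other caveola genes is on a chromosome of its own. TES, which encodes a focal adhesion protein, was at 142 FPKM at 2 cm and 137 FPKM at 50 cm (ratio 0.962). MET, the receptor for hepatocyte growth factor, was at 146 and 183 FPKM (ratio 1.25). CAPZA2, a further gene added for context, encodes an actin-capping subunit and was at 123 and 135 FPKM (ratio 1.10).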
